A study of Mus musculus with 3 samples.

Results

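The cells described here carry neural tube progenitor markers and were caught in droplet libraries of dissected otic vesicles, the sacs of epithelium beside the hindbrain that become the inner ear. A cell was taken if it held at least 3 of the 6 neural markers Sox1, Sox2, Sox3, Pax3, Pax6 and Hes5. It had to hold no UMI (unique molecular identifier, the tag of 1 captured transcript) of the epithelial gene Epcam, the neural crest gene Sox10 or the mesenchymal genes Prrx1 and Twist1, and at most 1 UMI of the neuronal gene Stmn2. Cells under 1000 detected genes or over 10% mitochondrial UMIs were left out first. This gave 473 cells of the 26130 that passed the cell filter. The CD library gave 185 of 8548 cells (2.16%, exact 95% interval 1.87 to 2.50), WT replicate 1 gave 272 of 6564 (4.14%) and WT replicate 2 gave 16 of 11018 (0.145%). Hindbrain lies beside the sampled tissue, how much of it was carried along per pool is not recorded, and the shares were not tested.

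All mouse embryos were at E10.5. CD embryos carried 1 copy of Sox9 with the Y440X change beside a wild-type copy, and gave 1 library. WT embryos were wild type and gave 2 libraries. Vesicles of several embryos were pooled before dissociation, so that a library is 1 pool, and the labels do not state whether the WT pools came from separate litters. The libraries were read from the 3' end of transcripts. The targeted gene, Sox9, is read from both alleles together and does not check the genotype. In the neural tube progenitors it stood at 171 CPM (a gene's UMIs per 1000000 UMIs of those cells) in the CD library, against 211 and 160 CPM in WT replicates 1 and 2. Where a pair of WT values follows without a name below, replicate 1 is given before replicate 2.

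At this stage the hindbrain is divided along the body axis into rhombomeres, and each keeps its own combination of Hox genes. Paralogue groups 1 and 2 reach furthest forward, group 3 stops behind them and groups 4 and above mark the hindmost hindbrain and the spinal cord. Across the tube, BMP and Wnt proteins from the roof plate set dorsal fates and Sonic hedgehog from the floor plate sets ventral ones. The dividing progenitors of the ventricular zone hold neurogenesis back through Notch signalling, with Hes5 as a direct target, and proneural factors such as Atoh1 start it in separate dorsal domains.

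The cells of WT replicate 2 stand apart. They were 16 cells with 206168 UMIs in all, against 2570648 UMIs in the CD library and 4385832 in WT replicate 1, and 8 of the 16 held exactly 3 of the markers. Only 1 of them held a UMI of Sox1, and Sox21 was at 0 UMIs. Median depth was 13241 UMIs a cell in the CD library, 15837.5 in WT replicate 1 and 11989 in WT replicate 2. No barcode was shared between libraries among these cells, while 14 to 27 were shared per pair of libraries among all cells that passed. Scrublet called 1 of the 473 cells a doublet, against 2.80% to 3.39% of all cells. The rule already leaves out cells with markers of other tissues, so these shares are not alike. Free RNA of other cells was read from 3 other classes of the same libraries. Otic cells were those with Epcam and at least 3 of Pax2, Pax8, Fbxo2, Hmx2, Hmx3 and Tbx1, mesenchymal cells those with at least 2 UMIs of Prrx1 and Twist1, and endothelial cells those with at least 2 of Cdh5, Kdr, Pecam1, Cldn5 and Emcn, with otic cells free of Prrx1 and Twist1 and the other classes free of Epcam. Their median depth was 15513 to 26547 UMIs a cell. Oc90, a matrix protein of the inner ear, was at 2.72 CPM in CD cells, against 7.75 and 38.8 CPM in the WT replicates, and haemoglobin genes summed to 1002 CPM against 462 and 776 CPM. In cells thinned to 5000 UMIs, Oc90 was seen in 1.16% of the CD progenitors, against 4.14% and 12.5% of the WT ones, and in 0.715% of CD mesenchyme, against 3.87% and 15.5% of WT mesenchyme.

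Promoters of 2 genes are shown, each as the 250 bases before the transcription start in RefSeq (GRCm38.p6). Hes5 is shown because it is the Notch target that most of these cells were chosen by, and Hoxb1 because it is the Hox gene that passed the comparison of genotypes. Capitals in Hes5 mark matches to GTGGGAA, a core site of RBPJ, the DNA-binding partner of Notch. Capitals in Hoxb1 mark the match to TGATNNAT, a composite site of HOX and PBX proteins, through which HOXB1 is known to keep its own gene on.
Hes5 (chr4:154960673-154960922, plus strand): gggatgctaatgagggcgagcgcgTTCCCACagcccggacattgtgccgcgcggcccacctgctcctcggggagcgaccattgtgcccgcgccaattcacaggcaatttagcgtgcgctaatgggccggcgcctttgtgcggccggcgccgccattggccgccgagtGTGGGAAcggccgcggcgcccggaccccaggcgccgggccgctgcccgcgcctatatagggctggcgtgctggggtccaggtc
Hoxb1 (chr11:96365508-96365757, plus strand): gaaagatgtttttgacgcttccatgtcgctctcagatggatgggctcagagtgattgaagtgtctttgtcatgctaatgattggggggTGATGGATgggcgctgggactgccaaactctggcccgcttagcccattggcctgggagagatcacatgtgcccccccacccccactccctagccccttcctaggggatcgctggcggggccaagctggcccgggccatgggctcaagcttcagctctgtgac
Both strands were searched. The Hes5 window held 2 matches, 1 on each strand, at 226 and 83 bases before the start, and 5.42% of all 32851 windows of that length held at least 1. The Hoxb1 window held 1 match, at 162 bases before the start, and 7.68% of all windows held 1. A match describes the letters and does not show that a protein binds there.

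The 6 genes of the rule were present as the rule requires and are given as a description. Hes5 was at 885 CPM in CD cells, against 953 and 694 CPM in the WT replicates. Sox2, the shared factor of neural and sensory progenitors, was at 333 CPM, against 405 and 373 CPM. Pax3, a dorsal factor, was at 300.3 CPM, against 282 and 141 CPM, and Pax6 at 96.9 CPM, against 101 and 67.9 CPM. Sox1, which marks the early neural plate and tube, was at 50.6 CPM in CD cells and 60.9 CPM in WT replicate 1, and at 4.85 CPM from a single UMI in WT replicate 2. Sox3 was at 58.4 CPM, against 32.1 and 58.2 CPM. The Sox1 value of WT replicate 2 stood apart from the others, and Pax3 was lowest in that library as well.

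Cells on the edge of the rule differed by which criterion they failed. Cells with exactly 3 markers still held Msx3, a homeobox gene of the dorsal neural tube, at 169 CPM in the CD library, against 147 and 78.1 CPM in the WT replicates. Cells with 2 markers that met all else held it at 56.7, against 84.8 and 129 CPM. The 27 CD, 46 WT replicate 1 and 14 WT replicate 2 cells that failed on Sox10 alone held Msx3 at 26.2 CPM, against 42.7 and 23.1 CPM. Those that failed on Epcam alone held Msx3 at 159 CPM, against 175 and 93.8 CPM, the last from 3 cells. For Prrx1 and Twist1 alone it was at 145 CPM, against 144 and 98.3 CPM. For Stmn2 alone it was at 96.9 CPM, against 210 and 143 CPM, the last from 2 cells. In each library these values lay above that of the cells that failed on Sox10 alone.

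Beyond the rule, the label was read from levels against all other cells. The 20 genes with the largest ratio to all other cells, taken by the lowest ratio of the 3 libraries, were led by Rfx4, Msx3, Hes5, Pax6 and Olig3, of which Hes5 and Pax6 are rule genes. Rfx4, a factor of neural tube and cilia development, was at 254 CPM in CD progenitors and 3.19 CPM in the other CD cells, at 239 and 3.81 CPM in WT replicate 1, and at 184 and 0.690 CPM in WT replicate 2. Others on the list were the receptor gene Adcyap1r1, Pax3, Hoxb3, the roof plate ligands Wnt3a and Wnt3, Hoxb2 and Fgfr3, a receptor of radial progenitors. These ratios follow from the choice of the cells and carry no test. Markers of other tissues were present at unequal levels. Pax8 of the otic placode had 0 UMIs in all libraries, and the 10 endothelial markers summed to 22.2 CPM, against 17.6 and 38.8 CPM. The 18 otic markers summed to 218 CPM, against 257 and 301 CPM (3489 CPM in CD otic cells, against 3573 and 4290 CPM), and the 8 erythroid markers to 973 CPM, against 453 and 766 CPM. Sox9 is 1 of the 18 otic markers and gave 171 CPM of that sum, against 211 and 160 CPM. The otic sums of the CD library and WT replicate 1 are thus mostly Sox9, and less so in WT replicate 2. The part of these tissue markers in the results was not tested.

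Most cells held Hox genes of groups 2 and 3, and genes of group 5 and above were not seen. Hoxb2 was at 264 CPM in CD cells, against 291 and 315 CPM in the WT replicates, and Hoxa2 at 85.2 CPM, against 98.95 and 150 CPM. A UMI of Hoxa2 or Hoxb2 was found in 170 of 185 CD cells, 264 of 272 cells of WT replicate 1 and all 16 of WT replicate 2. A group 3 gene was found in 133, 229 and 16 cells, with Hoxb3 at 79.0 CPM, against 65.4 and 102 CPM, Hoxa3 at 51.0 CPM, against 60.6 and 34.0 CPM, and Hoxd3 at 25.7 CPM, against 25.8 and 63.1 CPM. None of these 5 genes passed the comparison of genotypes over all genes, in which 3 of 10800 genes tested did (0.0278%, edgeR adjusted p under 0.05). Hoxa5, Hoxb5, Hoxc5 and the genes of groups 6 to 9 on the list had 0 UMIs in all libraries, which allows up to 1.17 CPM in CD cells, against 0.684 and 14.6 CPM in the WT replicates (the level that 3 UMIs would give). The midbrain and isthmus genes En1, En2 and Fgf8 held at most 1 UMI in any library.

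**Figure D1:**
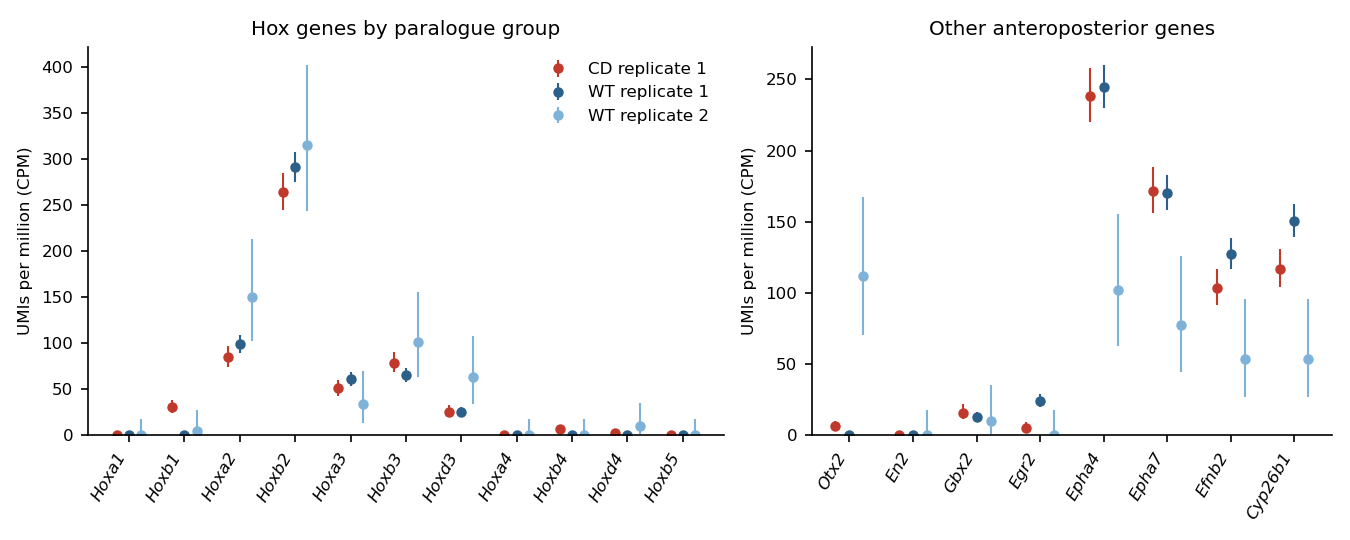
Level of Hox genes (left) and other anteroposterior genes (right) in the neural tube progenitors, in CPM, for the CD library and both WT libraries. Bars are exact 95% Poisson intervals of the summed counts and cover counting error only. Hoxb1 stands at 30.3 CPM in the CD library (interval 24.0 to 37.9), against 0 and 4.85 CPM (0.123 to 27.0) in the WT replicates.

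In thinned cells, a UMI of Hox group 3 or 4 was found in 45.7% of CD cells (79 of 173), against 52.6% of WT replicate 1 (140 of 266) and 56.2% of WT replicate 2 (9 of 16). The exact 95% intervals, 38.1 to 53.4, 46.4 to 58.8 and 29.9 to 80.2, overlap. Without thinning the shares were 71.9%, 84.2% and 100%. In otic cells, which should lack these genes, the thinned share was 0.445% in the CD library, against 0.253% and 0.248%.

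Of the Hox genes tested, Hoxb1 alone passed the comparison of genotypes. Restricted at this stage to rhombomere 4 within the hindbrain, it was at 30.3 CPM in CD cells (78 UMIs, exact 95% interval 24.0 to 37.9). It had 0 UMIs in WT replicate 1, which allows up to 0.684 CPM, and 1 UMI in WT replicate 2 (4.85 CPM, interval 0.123 to 27.0). The CD UMIs came from 28 of 185 cells with at most 6 in any one, against 0 of 272 cells of WT replicate 1, which allows a share of up to 1.10%, and 1 of 16 cells of WT replicate 2. Over the WT libraries together the ratio of levels, CD over WT, was 139 (interval 24.3 to 5573, counting error only), and against WT replicate 1 alone the CD level was at least 44.4-fold higher. In thinned cells the shares were 8.67%, 0% and 6.25%, and in otic, mesenchymal and endothelial cells of the CD library the share was at most 0.0742%. The CD interval lies above the level that WT replicate 1 allows and overlaps that of WT replicate 2. Overlap of intervals is no test. A difference from WT replicate 2 alone, where the level rests on 1 UMI, was not tested.

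The CD cells with Hoxb1 differed from the other CD cells in further Hox genes. Hoxa3 was at 6.67 CPM in the 28 cells with Hoxb1 and 60.4 CPM in the 157 without, Hoxb3 at 17.8 and 92.0 CPM, and Hoxd3 at 0 (which allows up to 6.67 CPM) and 31.1 CPM. Hoxb2, which rhombomere 4 also expresses, was at 311 and 254 CPM. Cyp26b1, which breaks down retinoic acid, was at 28.9 and 136 CPM. Egr2, the gene of rhombomeres 3 and 5, was at 0 in the cells with Hoxb1 and at 6.60 CPM in those without, a difference that is not detectable at this depth. Of the 28 cells, 9 also held a group 3 gene and 19 did not. These cells are of 1 library and were parted by the gene itself, so the values are a description of that pool.

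**Figure D2:**
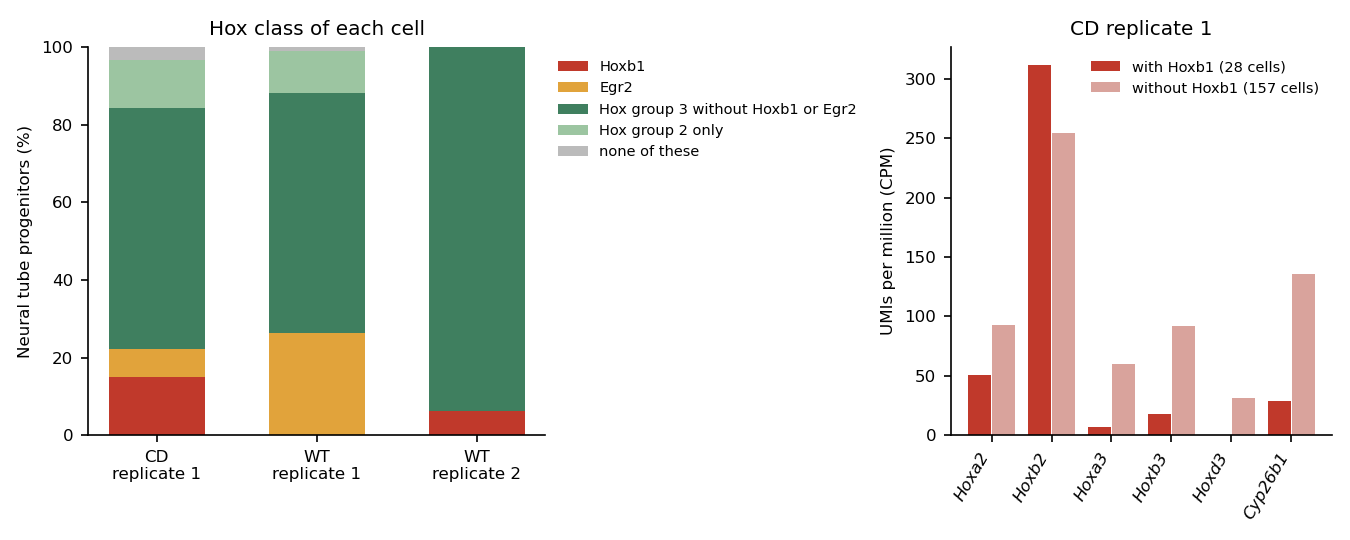
Left, share of neural tube progenitors in each library by the first matching class: a UMI of Hoxb1, of Egr2, of Hox group 3, of Hox group 2, or none. Cells are not thinned here, so depth differs between libraries. The Egr2 class is 7.03% in the CD library and 26.5% in WT replicate 1, and unthinned otic cells there held Egr2 in 8.62% and 17.6%. Right, level in CPM of 6 genes in CD cells with Hoxb1 and without it. Hoxb1 cells make up 15.1% of the CD library, 0% of WT replicate 1 and 6.25% of WT replicate 2, and in the CD library they hold little Hoxa3, Hoxb3, Hoxd3 and Cyp26b1.

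Egr2 and genes of regions outside the hindbrain were rare. Egr2 was at 5.45 CPM in CD cells, against 23.9 and 0 CPM in the WT replicates. It was seen in 2.89% of thinned CD cells, against 7.14% and 0%, while otic cells of the same libraries gave 2.30%, against 4.55% and 1.67%. In WT replicate 1, Epha4, an ephrin receptor of rhombomeres 3 and 5 and a target of EGR2, was at 247 CPM in the 72 cells with Egr2 and 244 CPM in the 200 without. In the CD library it was at 378 CPM in the 13 cells with Egr2 and 227 CPM in the 172 without. Otx2, a forebrain and midbrain gene, was at 6.22 CPM in CD cells and 0.228 CPM in WT replicate 1, and at 112 CPM in WT replicate 2. Of the 16 CD UMIs 13 lay in 1 cell. All 23 UMIs in WT replicate 2 came from 1 cell, which also held 18 of the 22 UMIs of Rspo1 in that library. Hoxb4 was at 7.002 CPM in CD cells, from 18 UMIs of which 11 lay in 1 cell, and at 0 in both WT replicates. Any gene of group 4 was held by 4 of 185 CD cells, 0 of 272 cells of WT replicate 1 and 2 of 16 cells of WT replicate 2.

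Across the tube, the chosen cells were dorsal. The rule counts Pax3, a dorsal factor, so dorsal cells meet it more easily, and the shares below describe the chosen cells only. In thinned cells at least 1 of 12 dorsal genes was seen in 94.8% of CD cells (interval 90.4 to 97.6), against 96.6% (93.7 to 98.4) of WT replicate 1 and 100% (79.4 to 100) of WT replicate 2. The same share was 7.11% in CD endothelium, against 6.58% and 7.88%, and 46.5% in CD otic cells, against 43.2% and 41.7%, where Msx1 and Lmx1a are expressed as well. None of 8 ventral genes was seen in a thinned cell, with 0 of 173 CD cells, 0 of 266 and 0 of 16 WT cells, which allows shares of up to 1.73%, 1.13% and 18.8%. Nkx6-1, Nkx2-2, Foxa2 and Shh had 0 UMIs in all 3 libraries without thinning, and Olig2 and Nkx6-2 had 1 and 2 UMIs, all in WT replicate 1.

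Genes of the dorsal domains were present in all libraries. Msx3 was at 205 CPM in CD cells, against 216 and 150 CPM in the WT replicates, and seen in 57.8% of thinned CD cells, against 60.2% and 56.2%. Olig3, which marks the dorsal domains next to the roof plate, was at 231 CPM, against 263 and 373 CPM. Msx1, a BMP-driven gene of the roof plate and its neighbours, was at 156 CPM, against 222 and 228 CPM, the lowest value in the CD library. Of its 47 UMIs in WT replicate 2, 19 lay in 1 cell. Zic1, a dorsal zinc finger factor, was at 326 CPM, against 296 and 252 CPM. Pax7 was at 30.0 CPM, against 34.9 and 9.70 CPM. The roof plate itself was scarce. Gdf7, which defines it, held 1, 0 and 2 UMIs in CD replicate 1, WT replicate 1 and WT replicate 2, and Lmx1a was at 5.45 CPM in CD cells, against 0.912 and 0 CPM. Wnt1 was at 8.56 CPM, against 11.9 and 48.5 CPM, and 7 of the 10 UMIs in WT replicate 2 came from the cell with Otx2. None of these genes passed the test.

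**Figure D3:**
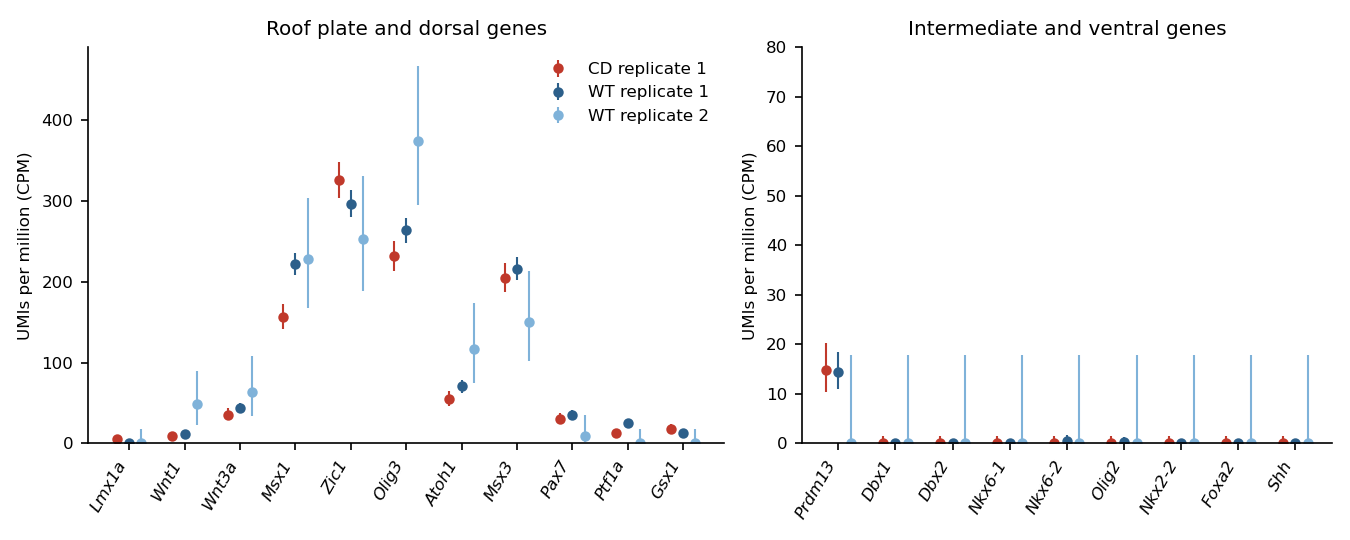
Level of roof plate and dorsal genes (left) and of intermediate and ventral genes (right) in the neural tube progenitors, in CPM, by library. Bars are exact 95% Poisson intervals of the summed counts. Dorsal genes such as Olig3 (231, 263 and 373 CPM) and Msx3 are present in all 3 libraries, while ventral genes from Nkx6-1 to Shh lie at or near 0.

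In the CD library and WT replicate 1, nearly all cells with Atoh1 held Olig3, and few cells with Ptf1a did. Atoh1, the factor of the rhombic lip, was at 54.9 CPM in CD cells, against 70.5 and 116 CPM, in 40 of 185 CD cells, 80 of 272 and 9 of 16 WT cells. Olig3 was present in all 40 of these CD cells, in 79 of the 80 and in all 9, against 119 of all 185 CD cells, 203 of all 272 and 15 of all 16 WT cells. Barhl1, a known target of ATOH1, was at 117 CPM in CD cells with Atoh1 and 8.50 CPM in those without, and at 113 and 3.85 CPM in WT replicate 1. Ptf1a, a factor of inhibitory neuron progenitors, was at 12.4 CPM, against 24.6 and 0 CPM. It was held by 19 CD cells and 40 cells of WT replicate 1, of which 0 and 4 held Olig3. These are counts of cells within single pools and carry no test.

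No Notch gene passed the comparison of genotypes. The ligand Dll1 was at 89.1 CPM in CD cells, against 107 and 58.2 CPM, the receptor Notch1 at 179 CPM, against 155 and 175 CPM, and the target Nrarp at 163 CPM, against 180 and 131 CPM. Of 20 genes on the list 17 were tested and 0 passed, with a median log2 fold change, CD over WT, of -0.09. Mki67 or Top2a was seen in 69.4% of thinned CD cells, against 72.2% and 68.8%, and in 74.9% of CD otic cells, against 75.8% and 70.0%. No class without dividing cells was measured, so the share that free RNA gives is unknown and the number of cycling cells is not read from these. Among 28 cell cycle genes 0 passed (median -0.05). The 2 of smallest p were lower in CD cells, Cdk1 at 83.6 CPM, against 139 and 131 CPM, and Ube2c, of the mitotic ubiquitin machinery, at 436 CPM, against 691 and 626 CPM.

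Patterning signals were read from their targets. Of the 10 BMP response genes 0 passed and 9 had a log2 fold change below 0, with a median of -0.42. Among all 10800 genes tested 5320 were below 0, with a median of 0.00331. Id1, an inhibitor of helix-loop-helix factors, was at 577 CPM in CD cells, against 690 and 1111 CPM in the WT replicates (log2 fold change -0.63, SE 0.25). Id3 was at 1130 CPM, against 1383 and 1586 CPM (-0.40, SE 0.20). Both were lowest in the CD library. Atoh8 was the 1 gene of the list above 0, at 12.1 CPM, against 8.21 and 14.6 CPM. Among 19 Wnt target genes 13 were tested and 0 passed (median -0.06). Axin2, a feedback inhibitor of the pathway, was at 129 CPM, against 176 and 155 CPM. Hedgehog pathway genes had 7 of 14 tested and 0 passed (median 0.09), and Gli1, a direct target, held 6 and 7 UMIs in CD replicate 1 and WT replicate 1 and 0 in WT replicate 2. In the retinoic acid list, Crabp1, which binds retinoic acid in the cytoplasm, was at 2638 CPM, against 4068 and 2425 CPM, with the CD value inside the WT range. Aldh1a2, which makes retinoic acid, held 0, 1 and 0 UMIs.

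The CD and WT cells were compared over all genes on counts summed per library, with edgeR's quasi-likelihood test. The design has 1 residual degree of freedom, from the WT pair, and assumes that the lone CD library varies like WT. Of 10800 genes tested, 2 rose in CD cells (0.0185%) and 1 fell (0.00926%) at an adjusted p under 0.05, 0.0278% in all, and 71 had an unadjusted p under 0.05. DESeq2 called 0 in either direction (4 at an unadjusted p under 0.05), and edgeR with RLE scaling called 0 (54 at an unadjusted p under 0.05). Hoxb1 rose with a fitted log2 fold change of 6.72 (SE 0.98, adjusted p = 0.00180), a size that depends on the WT counts near 0: without WT replicate 1 it was 2.56, and against WT replicate 1 alone the level was at least 44.4-fold higher. Hist2h2ac, a replication-dependent histone gene, was at 84.0 CPM in CD cells, against 19.2 and 0 CPM (log2 fold change 2.32, SE 0.44, adjusted p = 0.0441). In otic cells it was at 33.4 CPM in the CD library, against 10.3 and 26.1 CPM, so there WT replicate 1 alone was far below CD. Eif3j2, which encodes a translation initiation subunit, was at 1.56 CPM in CD cells, against 46.7 and 0 CPM (log2 fold change -4.54, SE 0.78, adjusted p = 0.0138). In otic cells it was at 3.07 CPM in the CD library, against 45.1 and 3.04 CPM, so WT replicate 1 alone was high in that class too. Eif3j1, a near-identical copy whose reads can be split with it, was at 192 CPM, against 123 and 189 CPM. Against WT replicate 2 alone, where it had 0 UMIs, Hist2h2ac was at least 5.77-fold higher in CD cells. Eif3j2 has no fold there, since the 0 UMIs of WT replicate 2 allow up to 14.6 CPM, above the CD level. For none of the 3 genes did the change against each WT library exceed the gap between the WT libraries.

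**Figure D4:**
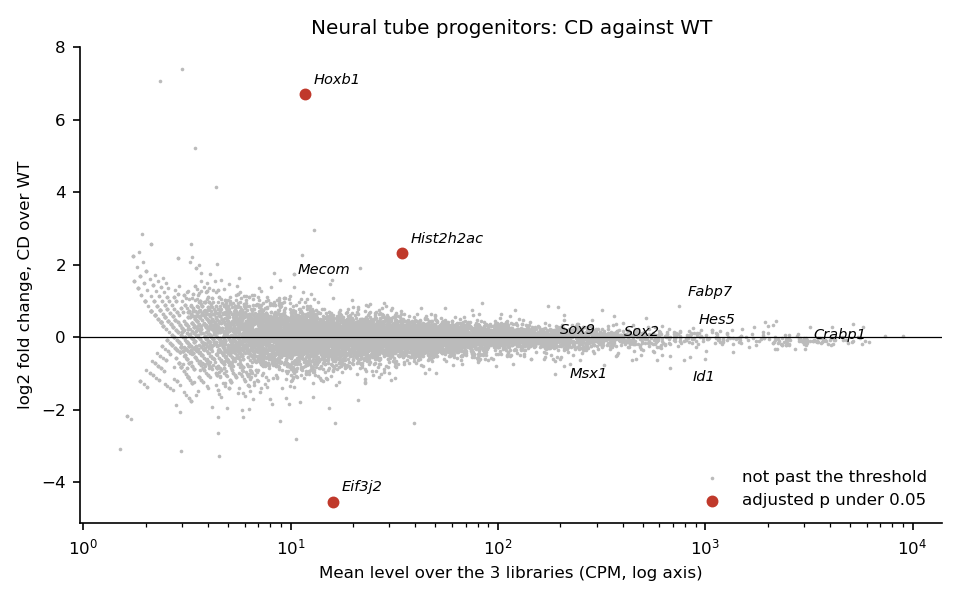
Log2 fold change of CD over WT against the mean level over the 3 libraries (log axis) for the 10800 genes tested in the neural tube progenitors. Hoxb1 and Hist2h2ac above and Eif3j2 below are the 3 genes past an edgeR adjusted p of 0.05. Sox2 and Hes5 lie near 0, but they are rule genes, so the choice of cells bears on their levels. Sox9 is at -0.19, Msx1 at -0.54, Fabp7 at 0.86 and Mecom at 1.91, none past the threshold.

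Genes that did not pass are given as values. Mecom, a zinc finger factor, was at 40.1 CPM in CD cells, against 10.0 and 14.6 CPM (log2 fold change 1.91, SE 0.45, adjusted p = 0.505), the highest value in the CD library. Fabp7, a lipid carrier of radial glia, was at 1100 CPM, against 780 and 364 CPM (0.86, SE 0.27), and its value was 1.53 without WT replicate 1 and 0.48 without WT replicate 2. Tomm22, a mitochondrial import receptor, was at 259 CPM, against 154 and 112 CPM (0.87, SE 0.29). The histone gene Hist1h2ap was at 432 CPM, against 578 and 1014 CPM (-0.86, SE 0.27). Ccn2, a matrix protein and YAP target, was at 19.8 CPM, against 47.0 and 29.1 CPM, and Zfp667 at 14.4 CPM, against 28.7 and 48.5 CPM. Sox9 itself had a log2 fold change of -0.19 (SE 0.29), Sox21 was at 56.8 CPM, against 45.1 and 0 CPM, and Sox8 at 5.45 CPM, against 7.52 and 4.85 CPM. All 7 haemoglobin genes tested were above 0 (median 0.85) and 12 of 13 mitochondrial genes (median 0.30), with 0 past the threshold, and both lists were lowest in WT replicate 1. Their part in other values was not tested.

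The genotype difference was then set against that of other cells of the same libraries, with the library as a block. Of 16860 genes, 5 (0.0297%) had a CD effect in neural tube progenitors that differed from that in otic cells, and 4 (0.0237%) one that differed from that in mesenchyme. Sox9 was among the 5. In otic cells it was at 737 CPM in the CD library, against 419 and 362 CPM, and in neural tube progenitors at 171 CPM, against 211 and 160 CPM, a difference of effects of -1.09 (log2, SE 0.15, edgeR adjusted p = 0.00391). Msx1 gave -1.33 (SE 0.17, adjusted p = 0.00306). It was lowest in the CD library among progenitors and highest there among otic cells, at 44.7 CPM, against 24.4 and 29.5 CPM. Among progenitors of WT replicate 2, 19 of the 47 Msx1 UMIs came from 1 cell, so its level there rests in large part on that cell. The differences of Sox9 and Msx1 passed the threshold under all 6 alternatives with a test.

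The other genes of this comparison were Mecom, Cuedc2 and Pbld1 against otic cells, and Fabp7, Rprm, Meis2 and Mecom against mesenchyme. Mecom in otic cells was at 12.9 CPM in the CD library, against 11.3 and 14.1 CPM, and in mesenchyme at 233 CPM, against 164 and 233 CPM. Its differences were 1.75 (SE 0.27) and 1.53 (SE 0.26). Cuedc2 lay at 127 CPM in CD progenitors, against 127 and 112 CPM, while in otic cells it was at 153 CPM, against 303 and 402 CPM. Fabp7 in mesenchyme was at 20.8 CPM, against 43.6 and 26.9 CPM, with a difference of 1.64 (SE 0.22). Meis2, a cofactor of HOX proteins, was at 459 CPM in CD progenitors, against 467 and 766 CPM, and in mesenchyme at 386 CPM, against 203 and 339 CPM, a difference of -0.89 (SE 0.15). Of the 6 alternatives with a test, Mecom passed in 6 against otic cells and 2 against mesenchyme, Cuedc2 in 5, Fabp7 in 5, Pbld1 in 4, Rprm in 3 and Meis2 in 2. The interaction rests on the same 16 cells of WT replicate 2.

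**Figure D5:**
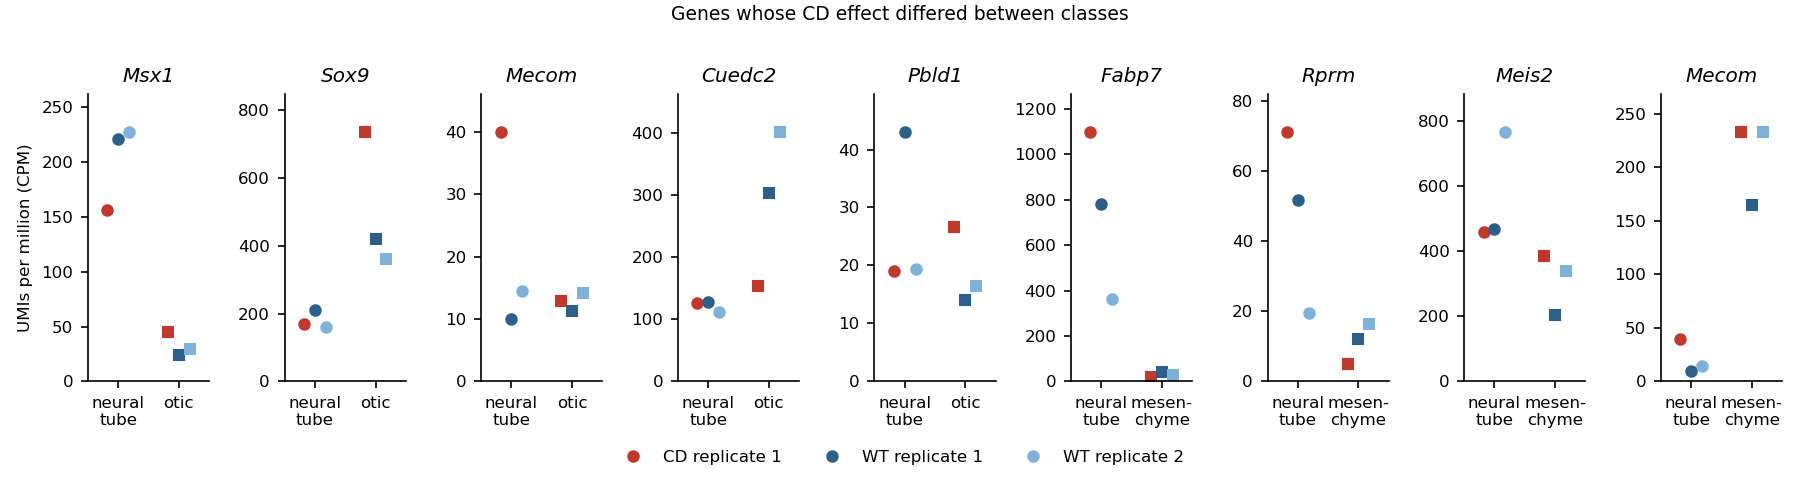
Level in CPM of the genes whose CD effect differed between classes, in neural tube progenitors (circles) and in otic or mesenchymal cells (squares), with 1 point per library and an axis from 0 for each gene. Sox9 is raised in CD otic cells (737, against 419 and 362 CPM) and not in CD neural tube progenitors, and Msx1 has its lowest progenitor value and its highest otic value in the CD library. In WT replicate 2, 1 cell gave 19 of the 47 Msx1 UMIs of the progenitors.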

How the data were processed

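Single cells of pooled E10.5 otic vesicles were profiled with the 3.1 version of the Chromium 3' kit, per the labels' protocols. Per the submitters' processing notes, the authors used Cell Ranger 6.0 and build mm39 (header version 6.0.0), and the matrices they deposited give raw UMI counts of 32285 features. Promoter coordinates are those of GRCm38.p6 and were not mixed with mm39. The members and gene lists were chosen with earlier results of these data known. The rule used the 6 markers and the exclusion genes, so values of these cells against other cells are a description.

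Counts were summed per library and tested in R 4.3.3 with the quasi-likelihood test of edgeR 4.0.16 after filterByExpr and TMM scaling (Benjamini-Hochberg threshold 0.05, median prior 27.6 degrees of freedom). Adjusted p-values of the report are edgeR's unless DESeq2 1.42.0 is named. P-values rest on the spread of the WT pair, drawn towards that of the other genes by the prior. That spread may be technical, and none among CD libraries was measured. The smallest p of a permutation of 1 against 2 libraries is 0.333. The WT libraries differed by more than counting noise (chi-square per degree of freedom 2.03 over 15750 genes). On simulated counts for this comparison (10838 genes), 100 genes were changed at each size. The test recovered 99% of changes of log2 2 and 100% of log2 3, with 25 false calls, a larger part of all calls than the threshold of 0.05 sets. Changes were placed only in genes of high summed counts, above those of Hoxb1 and Eif3j2, with 1 level of spread for all genes. The recovery therefore does not apply to genes of lower counts. Shares were compared after each cell was thinned to 5000 UMIs, which kept 173 CD cells, 266 of WT replicate 1 and 16 of WT replicate 2. Intervals on shares are exact at 95%, and intervals and floors (3 UMIs) cover counting error only. Doublets were called with Scrublet in scanpy 1.11.5 (expected rate 5%) and kept. Named genes are those of the Hox, rhombomere and dorsoventral lists, up to 10 called genes each way at 10 CPM or more whose change against each WT library exceeds the WT gap (with fewer than 3, values of the 5 genes of smallest p in each direction, as here), the 2 of smallest p from each other list, the 20 genes of largest ratio to other cells, Sox9, Sox8 and Sox21. Barhl1, Eif3j1 and some list genes were added after their values were seen. Some genes of these lists are not reported here.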

Additional observations from a re-analysis of the deposited data

Results flagged for a closer look

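Each value here is the log2 CD effect in neural tube progenitors minus that in another class of the same libraries, and each was listed because this difference itself passed the edgeR interaction test. Against otic cells, it was -1.33 for Msx1, -1.09 for Sox9, 1.75 for Mecom, 1.11 for Cuedc2 and -2.02 for Pbld1. Against mesenchymal cells, it was 1.64 for Fabp7, 1.90 for Rprm, -0.89 for Meis2 and 1.53 for Mecom. Pbld1 stood at 19.1 CPM in CD progenitors, against 43.1 and 19.4 CPM in WT replicates 1 and 2, and at 26.6 CPM in CD otic cells, against 14.0 and 16.5 CPM. Without WT replicate 1 its difference was -0.70. Rprm stood at 71.2 CPM in CD progenitors, against 51.8 and 19.4 CPM, and at 4.90 CPM in CD mesenchyme, against 12.1 and 16.3 CPM. Without WT replicate 1 its difference was 3.49.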

How the results depend on the processing

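The genes that rose numbered 0 with DESeq2, with RLE scaling and with 1 UMI of each exclusion gene allowed (chosen after seeing the data), 6 at no more than 5% mitochondrial UMIs and 4 with 16 cells a library, against 2. Those that fell numbered 0 with DESeq2, RLE scaling, equal cells and the looser exclusion, against 1. The counts of differences between classes were chosen for retesting in part after seeing the data. Against otic cells they were 30 without the gene filter and 3 with DESeq2, against 5. Against mesenchyme they were 15 without the filter, 1 without cells that held other markers, 1 with the looser exclusion and 0 with DESeq2, against 4. With 4 of 6 markers the progenitor shares became 1.63%, 3.28% and 0.0726% (CD, WT replicates 1 and 2), and with the looser exclusion 2.87%, 4.91% and 0.272%. Without thinning, the share with a dorsal gene was 98.4% in CD cells and the Hox group 3 or 4 shares 71.9%, 84.2% and 100%. Thinned to 3000 UMIs, the dorsal shares were 84.0% (CD) and 89.2% (WT replicate 1), and the Hox shares 33.1% and 35.3%. Without WT replicate 1 or 2, as values with no test, the log2 fold change of Fabp7 was 1.53 or 0.48. Hoxb1 had 2.56 without WT replicate 1 and Hist2h2ac 2.12 without WT replicate 2, and the WT library left in the other case was at 0 UMIs. Eif3j2 had no value without WT replicate 1, since 0 UMIs in WT replicate 2 allow more than the CD level. Hoxb1 passed in 5 of 8 tested alternatives (adjusted p 1.97e-13 to 1.00). None of the 10 genes of smallest p and the 9 differences between classes changed direction in the alternatives run. The cause of these changes was not tested. No paired analysis was run, since there was 1 CD library and a shared replicate number does not record a pairing. The 16 cells of WT replicate 2 limit all tests, since 3 UMIs there already make 14.6 CPM.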

Other observations

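Further list genes were no different in kind: none passed the edgeR comparison of genotypes, and each value below is among the smallest p of its list. In the Wnt lists, Lgr5, a receptor and target of the pathway, held 27 UMIs in CD cells, against 12 and 0 in WT replicates 1 and 2, and the ligand gene Wnt7b 56 UMIs, against 41 and 0. Sfrp2, a secreted Wnt inhibitor, was at 299.5 CPM, against 266 and 58.2 CPM. Among Notch genes, the ligand Jag1 was at 12.1 CPM, against 23.5 and 14.6 CPM. Among radial glia genes, Nfib, a factor of later gliogenesis, was at 27.6 CPM, against 12.5 and 19.4 CPM. Of 19 proneural genes tested 8 were above 0 (median -0.10), with Gadd45g at 377 CPM, against 428 and 660 CPM. In the FGF list 7 of 10 were above 0 (median 0.17), with Fgf15 at 10.9 CPM, against 21.2 and 9.70 CPM. In the stress list 9 of 12 were below 0 (median -0.29), with Ier2 at 72.7 CPM, against 148 and 72.8 CPM. Over all 10800 genes, 5480 were above 0 (median 0.00331).

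Some patterning genes were present in the CD library and WT replicate 1 and at 0 UMIs in WT replicate 2, where 0 allows up to 14.6 CPM. Neurog2, a proneural factor, was at 47.5 and 52.4 CPM, Gsx1, a homeobox gene of the dorsal tube, at 18.3 and 12.8 CPM, and Prdm13, a partner of PTF1A, at 14.8 and 14.4 CPM. Among markers of neighbouring tissues, Tfap2a of the neural crest and ectoderm held 6 UMIs in CD cells, against 36 and 0, and Pdgfra of mesenchyme 11 UMIs, against 4 and 0.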
